A study of Homo sapiens with 16 samples.

Results

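The comparison described here was made in Caco-2 cells that received no free fatty acids (FFAs), between 2 libraries from cells co-cultured with HepG2 cells and 2 libraries from cells cultured alone. Every gene that averaged 10 CPM or more over these 4 libraries was taken (CPM, reads assigned to a gene per 1000000 reads in its library), which gave 5310 of the 60623 gene identifiers in the series. At the limit, ANO10 and AP003499.3 entered with a mean of 10.0 CPM, and NADK2 and SUPT20H stayed out with 9.98 CPM. A gene below this limit in either group could enter through its level in the other. List medians and counts below therefore rest in part on the filter. The study cultured both lines in the chambers of a microfluidic gut-liver chip, alone or joined by circulating medium, with or without FFAs, and sequenced 16 libraries in 8 groups of 2. Caco-2 is a human colorectal adenocarcinoma line that is used for the absorptive lining of the intestine, and HepG2 is a human hepatocellular carcinoma line that stands for the liver.

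In the co-culture control group, Caco-2 cells shared a closed circuit of medium with HepG2 cells in the neighbouring chamber and received 0 mM FFA. In the mono-culture control group, Caco-2 cells were grown in the same kind of chip without a partner and also received 0 mM FFA. The 2 further Caco-2 groups, with and without HepG2, received 1 mM of FFAs, palmitic together with oleic acid. The cells were detached with trypsin while the valves between the chambers were shut. No group carries a genetic change made by the study, and both lines are tumour lines, so that neither stands for all the cells of its organ. The labels put the preparation of the samples after 1 day. The study's own text describes gene expression both after 1 day and after 7 days of FFA treatment. The library titles begin with LTC, which they do not spell out. The duration can therefore not be given with certainty. The labels give replicates 1 and 2 in each group without saying whether they came from separate chips, so the p-values measure only the spread between these libraries, which may be technical.

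The 4 libraries were shallow. The mono-culture libraries held 365396 and 850986 reads and the co-culture libraries 504792 and 353871, in the order of replicates 1 and 2 that is kept below. A count of 3 reads, taken as the limit of detection, corresponds to between 3.53 and 8.48 CPM, a range that covers counting error only. Of 9 genes that mark Caco-2 or the intestinal epithelium, VIL1, CDH17, EPCAM and FABP1 had reads in all 4 libraries, and CDX2, GPA33, LGALS4, KRT20 and SI had at most 3 reads in every library. Of the detected markers, only CDH17 had no read in the HepG2 control libraries. In HepG2 mono-culture, VIL1 was at 20.9 and 24.4 CPM and EPCAM at 232 and 201 CPM. FABP1, at 10921 and 9847 CPM there, was far above its level in these Caco-2 libraries. The extraction text of the labels names myoblasts. Of 25 myoblast and muscle genes, 19 had no read in the 4 libraries and 1 was high enough to be tested.

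Enterocytes absorb fatty acids, carry them through the cytosol bound to FABP1, and export them on lipoproteins built around apolipoproteins. They burn part of the fatty acids in mitochondria, whose own small genome encodes core subunits of the respiratory chain and the ribosomal RNAs of the organelle. In the body, blood from the gut reaches the liver directly, and the liver answers with bile acids and secreted proteins. Cytosolic ribosomes are built in the nucleolus, where small nucleolar RNAs guide the cutting and modification of ribosomal RNA.

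More genes were higher than lower in co-culture with HepG2. At an adjusted p under 0.05, 112 of the 5310 genes differed (2.11%), 92 of them higher in co-culture (1.73%) and 20 lower (0.377%). The shares of 1.73% and 0.377% are the background for each count of calls in a gene list below. All adjusted p-values are from limma on log2(CPM + 1), adjusted over all 5310 genes by the Benjamini-Hochberg method, and each log2 difference is co-culture minus mono-culture on that scale, which understates the change of low genes. The genes that rose did so by 0.24 to 3.90 (median 1.48), and the log2 differences of the genes that fell ran from -2.51 to -0.30 (median -0.65). Protein-coding genes made up 82 of the 92 risers, beside 4 copies of 5.8S rRNA, 3 snoRNAs, 1 Cajal body RNA, 1 mitochondrial rRNA and 1 pseudogene. Among the 20 that fell were 15 protein-coding genes, 4 long non-coding RNAs and 1 pseudogene. The 112 entries lie at 102 separate positions of the genome, because entries such as ETFB and AC008750.8, or MT-ND4 and MT-ND4L, overlap and may share reads. In bulk RNA, a change in the number of cells of a kind and a change in the RNA per cell cannot be told apart.

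Between libraries of one group, the median absolute log2 difference was 0.35 in mono-culture and 0.33 in co-culture. Between a mono-culture and a co-culture library it was 0.42, as the median over all such pairs. The median gene was 0.15 higher in co-culture on the log2 scale. When the libraries were rescaled so that this shift was removed, 62 genes passed with median-ratio factors (42 higher, 20 lower) and 62 with TMM factors (43 higher, 19 lower), and 50 passed after quantile normalization (36 higher, 14 lower). The share of higher calls was then 67.7%, 69.4% and 72.0%, in place of 82.1%. All 20 lower genes and 91 of the 92 higher genes kept their sign in each of these scalings. The exception was the mitochondrial rRNA MT-RNR2, whose difference was 0.00 after quantile normalization.

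**Figure D1:**
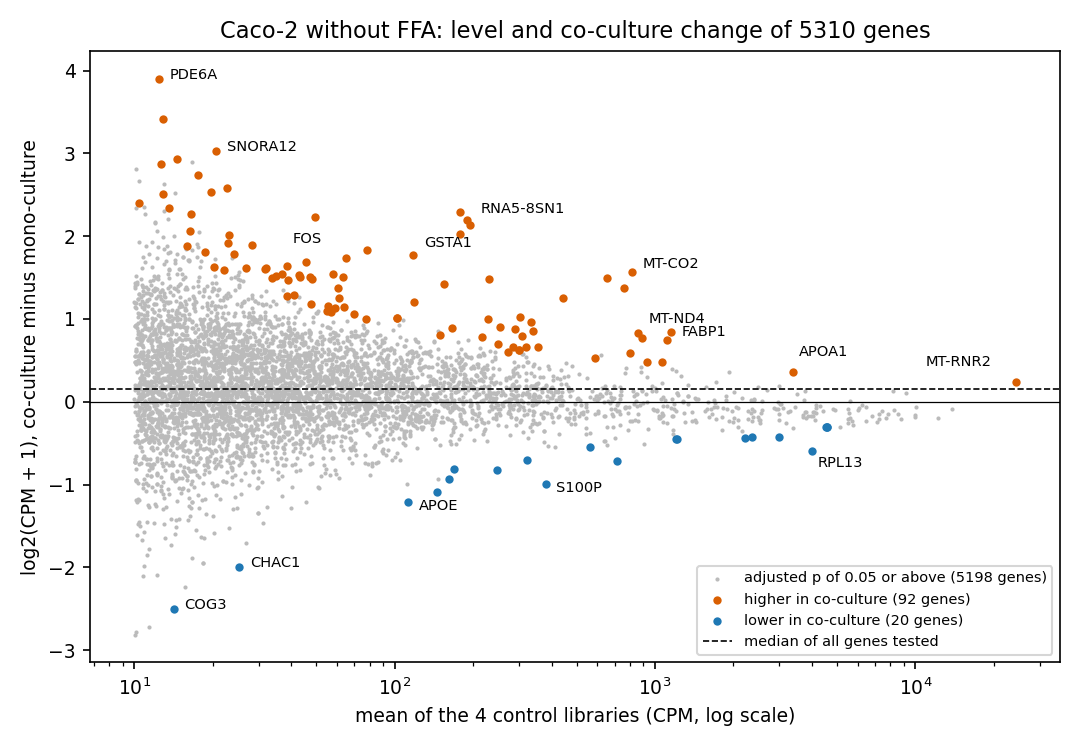
Level and change of the 5310 genes. Each point is a gene, with the mean of the 4 control libraries in CPM on a log axis (horizontal) and the log2 difference, co-culture minus mono-culture (vertical). Coloured points passed at an adjusted p under 0.05, 92 above zero and 20 below it, and the dashed line is the median of all genes, 0.15. The mean level had a median of 639 CPM for the lower genes and 63.5 CPM for the higher genes.

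With 1 library left out in turn, 42 to 69 genes passed: 65 without mono-culture replicate 1, 69 without mono-culture replicate 2, 47 without co-culture replicate 1 and 42 without co-culture replicate 2. Of the 112 genes, 18 passed in all 4 of these fits. They were MT-CO2, MT-ND1, MT-CYB, MT-ND5, MT-ND2, MT-CO3, MT-ATP6, MT-ND4 and MT-CO1, the 4 copies of 5.8S rRNA, SNORD13, FABP1, GSTA1, SUCLG1 and RPL13. Each of the other 94 genes lost its call without at least 1 of the libraries, and 35 lost it in each of the 4 fits. edgeR on the recovered reads called 63 genes (41 higher, 22 lower), of which 57 were among the 112, while DESeq2 called 58, of which 9 were higher and 49 lower, and gave an adjusted p to 369 genes only. DESeq2 without its independent filter, a choice made after the data were seen, called 26 (16 higher, 10 lower), all among the 112.

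Most genes of the mitochondrial genome rose. Of its 15 genes tested, 12 rose and none fell, with a median log2 difference of 1.22 against 0.15 for all genes. Between 9 and 11 of the 15 passed with 1 library left out. MT-CO2, a subunit of cytochrome c oxidase, was at 487 and 338 CPM in mono-culture and at 1347 and 1082 CPM in co-culture. Its level in the lower co-culture library was above that in the higher mono-culture library (log2 1.57 ± 0.19, SE, n = 2 per group, adjusted p = 1.3e-06). MT-ND1, of complex I, went from 416 and 277 CPM to 1056 and 873 CPM (1.50 ± 0.18, adjusted p = 1.4e-06). MT-CYB, the cytochrome of complex III, was at 126 and 112 CPM and then at 402 and 277 CPM (1.49 ± 0.19, adjusted p = 6.6e-06). Co-culture was above mono-culture without overlap for each of the 15 genes, as it was for 31.9% of all genes.

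The rise was uneven along the mitochondrial genome. Besides MT-ND1, the complex I genes MT-ND2 (484 and 369 CPM to 1169 and 1026 CPM), MT-ND5 (90.3 and 76.4 CPM to 246 and 203 CPM) and MT-ND3 (46.5 and 21.2 CPM to 109 and 76.3 CPM) rose by 1.37, 1.42 and 1.51. MT-ND4 rose by 0.83 and MT-ND4L, which overlaps it, by 1.07. The oxidase subunit MT-CO3 rose by 1.25 and MT-CO1 by 0.75, while the ATP synthase subunit MT-ATP6 rose by 0.96. MT-ATP8 (5.48 and 7.05 CPM against 17.8 and 14.1 CPM, adjusted p = 0.33), MT-ND6 (21.9 and 23.5 CPM against 55.5 and 33.9 CPM, adjusted p = 0.18) and the ribosomal RNA MT-RNR1 (1678 and 1709 CPM against 2098 and 2233 CPM, adjusted p = 0.056) did not pass. The far more abundant MT-RNR2 was at 22118 and 22435 CPM and at 27892 and 24668 CPM, a difference of 0.24 ± 0.06 (adjusted p = 0.028). edgeR gave an adjusted p of 0.78 for MT-RNR2.

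As a share of all reads, the protein-coding genes of the mitochondrial genome took 0.376% and 0.312% in mono-culture and 0.812% and 0.720% in co-culture. The 77 tested genes of the respiratory chain and ATP synthase that are encoded in the nucleus did not show this shift. Their median log2 difference was 0.07. Of them 2 rose, where 1.73% of all genes did, and none fell. The risers were ATP5F1C, a subunit of the ATP synthase, at 0.53 (adjusted p = 0.045) and NDUFA13, of complex I, at 0.62 (adjusted p = 0.047). Both calls were lost in each fit with 1 library left out.

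**Figure D2:**
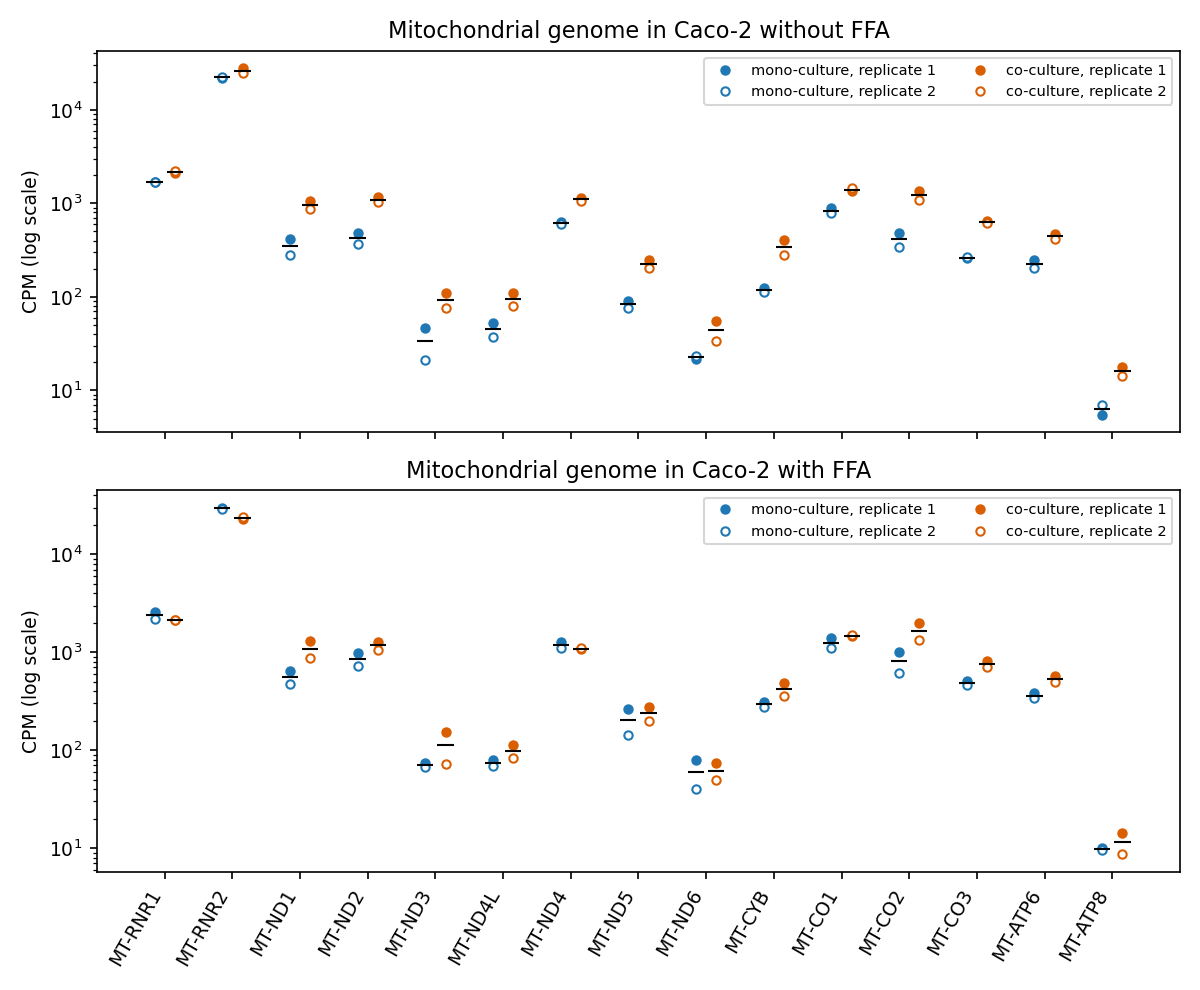
Genes of the mitochondrial genome in each Caco-2 library. The 2 panels show libraries without and with FFA, with CPM on a log axis, a point for each library (filled for replicate 1, open for replicate 2) and a line at the mean. Without FFA, the co-culture points lie above the mono-culture points for all 15 genes. With FFA, the groups lie closer together for the protein-coding genes. For MT-RNR1, MT-RNR2 and MT-ND4 the co-culture points with FFA lie below the mono-culture points.

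5.8S rRNA and 4 of 6 tested SNORA, SNORD and SCARNA entries, which are small nucleolar and Cajal body RNAs, were higher in co-culture. The 4 tested entries for 5.8S rRNA, a component of the large ribosomal subunit, are identical in sequence over their 153 bases. Reads of one can be assigned to another, so the entries amount to 1 measurement. The sequence is shown because all 4 entries share it, as are 2 of the nucleolar RNAs with the largest rises. They were read from the GRCh38 genome at the GENCODE 44 positions and are written in lower case from 5′ to 3′. The first lies at chr21:8439823-8439975 on the + strand, with the other copies at chr21:8212572-8212724, chr21:8395607-8395759 and chr21:8256781-8256933. SNORA12 lies at chr10:100237156-100237302 on the - strand, within the span of CWF19L1, and AL138963.2 (named SNORA31B in GENCODE 44) at chr13:45336314-45336447 on the - strand, within the span of TPT1. Capitals mark the ACA box, which lies 3 bases from the 3′ end in nucleolar RNAs of this class.
RNA5-8SN1: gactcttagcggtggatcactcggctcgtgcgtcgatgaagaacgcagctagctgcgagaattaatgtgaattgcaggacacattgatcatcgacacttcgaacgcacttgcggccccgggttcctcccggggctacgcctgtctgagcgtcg
SNORA12: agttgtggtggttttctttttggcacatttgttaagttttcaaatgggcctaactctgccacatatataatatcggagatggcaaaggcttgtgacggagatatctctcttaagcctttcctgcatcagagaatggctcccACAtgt
AL138963.2: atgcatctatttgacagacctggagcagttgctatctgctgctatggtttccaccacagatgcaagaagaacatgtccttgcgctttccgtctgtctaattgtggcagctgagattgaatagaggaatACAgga

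Summed over its copies, 5.8S rRNA was at 290 and 249 CPM in mono-culture and at 1268 and 1153 CPM in co-culture. Both co-culture libraries were far above both mono-culture libraries, and all 4 copies passed (log2 2.03 to 2.29, for RNA5-8SN1 2.13 ± 0.20 with adjusted p = 5.3e-08). The libraries were labelled as polyadenylated RNA, and 5.8S rRNA as a rule carries no poly(A) tail.

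Of 6 tested entries with a SNORA, SNORD or SCARNA name, 4 rose and none fell (median 2.21). The series held 552 such entries, and the others were too low to be tested. SNORA12 and AL138963.2 averaged 3.72 and 6.66 CPM in mono-culture and entered only through their co-culture level. So did AP003499.3 (5.29 CPM), a snoRNA without such a name that is not among the 6. Its groups overlapped and it did not pass (log2 1.21, adjusted p = 0.46). The median and the absence of falls therefore rest in part on the filter. SNORD13, which guides acetylation of the small-subunit rRNA, was at 16.4 and 16.5 CPM and rose to 93.1 and 70.6 CPM (2.24 ± 0.37, adjusted p = 0.00042). SNORA12 had 1 and 4 reads in mono-culture and 22 and 11 reads in co-culture, or 2.74 and 4.70 CPM against 43.6 and 31.1 CPM (3.03 ± 0.60, adjusted p = 0.004). Its groups were well apart, but few reads stand behind the values. AL138963.2 was at 2.74 and 10.6 CPM and at 43.6 and 33.9 CPM (2.58 ± 0.55, adjusted p = 0.0081), while its host gene TPT1, at 10364 and 10158 CPM against 9242 and 10362 CPM, did not pass (adjusted p = 0.69). SCARNA22, which lies in NSD2, rose from 21.9 and 14.1 CPM to 71.3 and 39.6 CPM (1.54 ± 0.37, adjusted p = 0.025). Without co-culture replicate 1, only 1 of the 4 small RNAs still passed. The 18 tested host genes of nucleolar RNAs had a median of -0.25, with none called higher and 1 called lower, SNHG32 (1434 and 1362 CPM to 1006 and 1031 CPM, -0.46 ± 0.12, adjusted p = 0.034).

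Genes of lipid handling by the enterocyte rose in part. FABP1, the cytosolic fatty acid carrier of enterocytes and hepatocytes, was at 846 and 801 CPM in mono-culture and at 1547 and 1419 CPM in co-culture. The groups were clearly apart (1.80-fold, log2 0.85 ± 0.14, adjusted p = 0.00032), and FABP1 passed whichever library was left out. Of 10 genes of lipoprotein assembly, 3 rose and 1 fell, where 1.73% and 0.377% of all genes did. Their median was 0.41. None of these rises held without mono-culture replicate 2, co-culture replicate 1 or co-culture replicate 2, and the fall was lost without co-culture replicate 1. APOC3, an inhibitor of lipoprotein lipase, went from 764 and 565 CPM to 1129 and 1108 CPM (0.77 ± 0.16, adjusted p = 0.0065). APOA1, the main protein of high-density lipoprotein, rose from 3125 and 2817 CPM to 3740 and 3854 CPM (0.36 ± 0.09, adjusted p = 0.032), and APOH from 298 and 201 CPM to 372 and 407 CPM (0.67 ± 0.18, adjusted p = 0.042). APOE, a ligand of lipoprotein receptors, moved the other way, from 159 and 155 CPM to 59.4 and 76.3 CPM (-1.21 ± 0.24, adjusted p = 0.0038). APOB, the structural protein of chylomicrons, was at 2.74 and 5.88 CPM against 19.8 and 25.4 CPM and just failed to pass (adjusted p = 0.053). With a mean of 4.31 CPM in mono-culture, APOB entered only through its co-culture level.

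Of 19 genes of fatty acid oxidation and ketone body formation, 3 rose and none fell, and 17 were above the median of all genes (list median 0.64). ETFB, which passes electrons from fatty acid oxidation to the respiratory chain, rose from 208 and 192 CPM to 382 and 432 CPM (1.02 ± 0.19, adjusted p = 0.0027). The carnitine carrier SLC25A20 was at 2.74 and 2.35 CPM and at 13.9 and 22.6 CPM (2.40 ± 0.63, adjusted p = 0.038). With a mean of 2.545 CPM in mono-culture, SLC25A20 entered only through its co-culture level. The groups did not overlap for either gene, but SLC25A20 lost its call in each fit with 1 library left out, and none of the list passed without co-culture replicate 2. Outside the list, as related genes chosen after their values were seen, DECR1 (1.29, adjusted p = 0.037), PHYH (0.81, adjusted p = 0.028), BDH2 (1.50, adjusted p = 0.0081) and SUCLG1 (0.88, adjusted p = 0.0034) rose. DECR1 reduces unsaturated acyl-CoA, PHYH oxidises branched fatty acids, BDH2 is a hydroxybutyrate dehydrogenase and SUCLG1 is a subunit of the citric acid cycle enzyme succinyl-CoA ligase. SUCLG1 was at 205 and 201 CPM against 380 and 367 CPM, and the replicates of each group lay close together. No gene of fatty acid synthesis (10 tested, median 0.06) or of lipid droplets (9 tested, median 0.11) passed.

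The glutathione transferases GSTA1, GSTA2 and MGST3 rose in co-culture. GSTA1, which conjugates glutathione to electrophiles and is abundant in intestine and liver, was at 49.3 and 56.4 CPM in mono-culture and at 196 and 170 CPM in co-culture (1.77 ± 0.24, adjusted p = 1.7e-05). GSTA2, its close relative, was at 52.0 and 18.8 CPM and at 160 and 82.0 CPM (1.84 ± 0.39, adjusted p = 0.0072). Both co-culture libraries were above both mono-culture libraries for each gene. Since the genes are near-identical copies, the counting may have split reads between them, and their separate values are uncertain. Of 30 tested NRF2 targets and glutathione genes, 3 rose and 1 fell, where 1.73% and 0.377% of all genes did. Their median was -0.01. MGST3, a microsomal glutathione transferase, rose from 246 and 203 CPM to 368 and 410 CPM (0.79, adjusted p = 0.0081), and AKR1C2, a hydroxysteroid dehydrogenase, fell from 230 and 166 CPM to 101 and 82.0 CPM (-1.09 ± 0.22, adjusted p = 0.0059). Without mono-culture replicate 2, only 1 of the rises was left, and the fall was lost without mono-culture replicate 1 or co-culture replicate 2.

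The promoters of FABP1, GSTA1 and GSTA2 are printed because FABP1 and GSTA1 rose whichever library was left out and GSTA2 is the close copy of GSTA1. They were taken from RefSeq on GRCh38.p14, from 250 bases before to 50 bases after the start, in the direction of transcription. FABP1 lies at chr2:88128013-88128312, GSTA1 at chr6:52803767-52804066 and GSTA2 at chr6:52763426-52763725, all on the - strand. Capitals mark GTTAAT on either strand (ATTAAC where it reads from the other strand), the shared core of sites for HNF1, a transcription factor of liver and gut epithelium. GSTA1 and GSTA2 have the same base at 288 of 300 positions.
FABP1: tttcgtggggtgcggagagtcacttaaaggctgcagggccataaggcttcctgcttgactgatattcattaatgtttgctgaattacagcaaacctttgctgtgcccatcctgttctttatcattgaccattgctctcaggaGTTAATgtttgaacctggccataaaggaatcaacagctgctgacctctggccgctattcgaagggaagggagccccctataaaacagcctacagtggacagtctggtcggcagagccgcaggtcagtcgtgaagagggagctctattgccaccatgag
GSTA1: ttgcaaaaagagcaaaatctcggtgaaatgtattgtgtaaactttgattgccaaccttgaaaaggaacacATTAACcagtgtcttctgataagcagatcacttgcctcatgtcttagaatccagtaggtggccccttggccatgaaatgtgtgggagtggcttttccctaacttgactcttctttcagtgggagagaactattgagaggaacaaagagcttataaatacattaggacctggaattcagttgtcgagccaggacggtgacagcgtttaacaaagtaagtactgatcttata
GSTA2: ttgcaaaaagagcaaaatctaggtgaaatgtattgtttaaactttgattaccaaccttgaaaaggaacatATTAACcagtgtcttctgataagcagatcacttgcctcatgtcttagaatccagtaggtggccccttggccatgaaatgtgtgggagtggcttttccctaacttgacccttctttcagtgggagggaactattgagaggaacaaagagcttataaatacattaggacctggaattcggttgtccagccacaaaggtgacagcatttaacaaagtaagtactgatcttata

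A RefSeq promoter was found for 53 of the 92 higher genes and 15 of the 20 lower genes. GTTAAT was present for 9 of the 53 (AFP, APOH, FABP1, FXYD3, GSTA1, GSTA2, SLC9B2, SUCLG1 and TFEC), for 0 of the 15 and for 189 of the 3880 tested genes with a promoter. The near copies GSTA1 and GSTA2 hold it at the same position. Counted by promoter, as a gene can have several, it was in 13.2% for the higher genes and 3.96% for the tested genes. It was in 6.88% of all 35116 promoters of the same length. The full HNF1 palindrome, the HNF4 site CAAAGTCCA and the nuclear receptor repeat CAAAGGTCA, each searched on both strands, were found for none of the 53. They were present in 0.0484%, 0.384% and 0.407% of all promoters. AGATAA, which factors of the GATA family bind, was found for 5 of the 53, for 2 of the 15 and for 273 of the 3880. Counted by promoter, it was in 7.35% for the higher, 9.52% for the lower and 5.39% for the tested genes, and in 10.3% of all promoters.

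Intestinal genes were few at this depth. Of 22 genes of intestinal identity, 7 were tested and PHGR1, a small protein of the gut epithelium, rose from 32.8 and 38.8 CPM to 65.4 and 90.4 CPM (1.09 ± 0.30, adjusted p = 0.049). This call was lost whichever library was left out. Of 9 tested genes of the brush border and digestion, all lay above the median of all genes and FABP1, described above, was the only one to pass. VIL1, the actin bundler of microvilli, was at 24.6 and 36.4 CPM against 51.5 and 45.2 CPM (adjusted p = 0.33), and the scaffold SLC9A3R1 at 2.74 and 7.05 CPM against 21.8 and 19.8 CPM (adjusted p = 0.071). SLC9A3R1 averaged 4.895 CPM in mono-culture and entered only through its co-culture level. CES1, a carboxylesterase that hydrolyses esters and drugs, was the riser among 8 genes of bile acid and xenobiotic handling (118 and 114 CPM to 210 and 223 CPM, 0.90 ± 0.20, adjusted p = 0.0094). TFF3, a peptide of mucus-secreting cells, was at 68.4 and 69.3 CPM against 107 and 150 CPM (adjusted p = 0.057). DEFB1, an antimicrobial defensin of epithelia, rose from 16.4 and 14.1 CPM to 51.5 and 45.2 CPM (1.60 ± 0.36, adjusted p = 0.014), and the iron exporter SLC40A1 rose by 1.28 (adjusted p = 0.037).

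**Figure D3:**
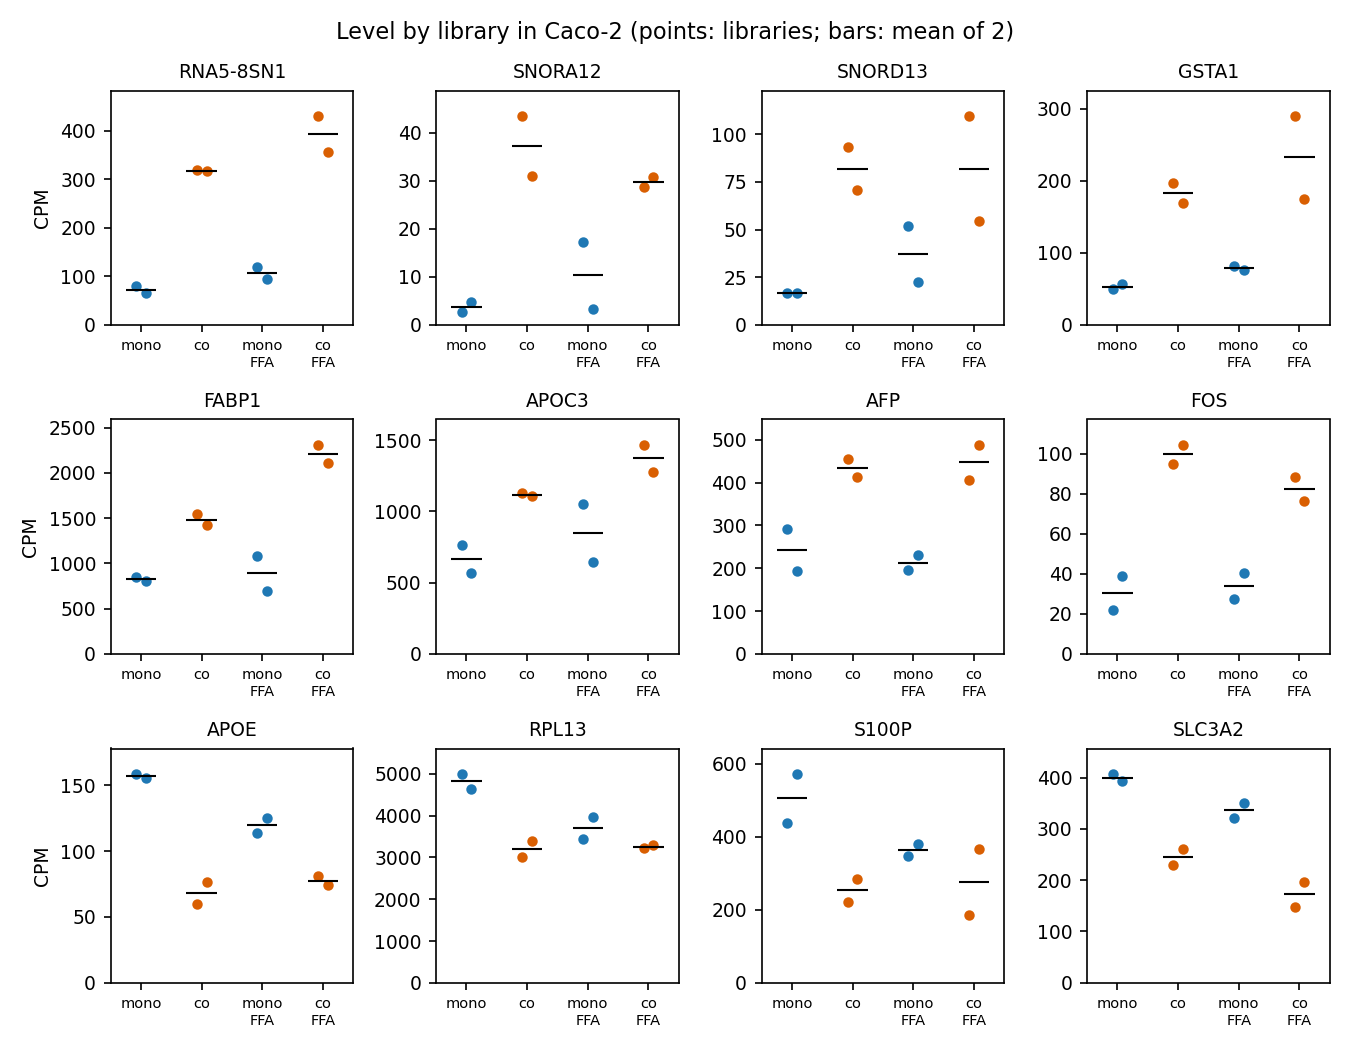
Levels of single genes in the 8 Caco-2 libraries. Each panel shows a gene in CPM from zero, with a point for each library and a line at the mean of 2, in the order mono-culture, co-culture, mono-culture with FFA and co-culture with FFA. FABP1 and GSTA1 were higher in co-culture in both media, with no overlap of the groups.

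Genes that define hepatocytes were also read in Caco-2 cells cultured alone. Of 39 such genes, 24 had reads in all 4 libraries and 20 were tested, and their summed level was 8404 and 7156 CPM in mono-culture and 9133 and 9439 CPM in co-culture. With a median of 0.60, 2 of the 20 rose, where 1.73% of all genes did, and none fell. These were AFP (293 and 194 CPM to 456 and 413 CPM, 0.86 ± 0.18, adjusted p = 0.0081) and TTR, the thyroid hormone carrier (783 and 769 CPM to 1068 and 1094 CPM, 0.48, adjusted p = 0.037). AFP lost its call without mono-culture replicate 2 or co-culture replicate 1, and TTR whichever library was left out. ALB, at 509 and 490 CPM against 727 and 757 CPM, did not pass (adjusted p = 0.18).

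HepG2 markers were also summed in the Caco-2 libraries. The 48 markers were genes read in HepG2 mono-culture without FFA but hardly in Caco-2 mono-culture with FFA. Their level was 0.823% and 0.333% of the HepG2 level in mono-culture and 1.39% and 0.801% in co-culture. These groups overlap (difference 0.517 percentage points, exact two-sided permutation p = 0.667, where 0.333 is the smallest possible with 2 against 2, so that no difference could pass). For the 20 markers at 50 CPM or more in HepG2 the groups did not overlap, with 0.440% and 0.188% against 0.636% and 0.567% (exact permutation p = 0.333). Nor did they for the 39 hepatocyte-defining genes, with 20.1% and 17.1% against 21.8% and 22.5% (exact permutation p = 0.333). AMBP, at a mean of 3348 CPM in the HepG2 control libraries, was at 10.9 and 7.05 CPM in mono-culture and 17.8 and 5.65 CPM in co-culture. FGA, at 732 CPM in HepG2, was at 0 and 2.35 CPM and at 5.94 and 0 CPM, and TF, at 1026 CPM in HepG2, at 0 and 2.35 CPM and at 5.94 and 2.82 CPM. As a percentage of the HepG2 level, the difference between the group means was 0.0820 for AMBP, 0.245 for FGA, 0.312 for TF and 0.748 for FGG. By the same measure it was 3.23 for ALB, 4.20 for AFP, 6.48 for FABP1, 34.6 for TTR and 63.2 for APOC3. It was negative, that is lower in co-culture, for RBP4 (-7.39), AHSG (-4.23), HP (-1.13) and APOA2 (-0.0672). The part of HepG2 RNA in these differences was not tested.

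Genes of DNA replication lay above most genes, with few calls. Of 31 tested genes of DNA replication, 26 were above the median of all genes (list median 0.53), 18 had groups that did not overlap in the higher direction, against 31.9% of all genes, and 2 passed. PCNA, the sliding clamp of DNA polymerase, was at 16.4 and 17.6 CPM and at 83.2 and 36.7 CPM (1.65 ± 0.38, adjusted p = 0.018), so that the co-culture replicates themselves lay far apart. FEN1, the flap endonuclease, was at 5.48 and 5.88 CPM and at 25.8 and 28.3 CPM (2.07 ± 0.52, adjusted p = 0.032). With a mean of 5.68 CPM in mono-culture, FEN1 entered only through its co-culture level. FEN1 lost its call whichever library was left out, and PCNA passed in 1 of these 4 fits. Of 43 tested mitosis genes, 1 passed, where 1.73% of all genes passed as higher. Their median was 0.18, against 0.15 for all genes. The gene that passed was HMMR, a hyaluronan receptor that binds the spindle, at 24.6 and 17.6 CPM against 77.3 and 62.2 CPM (1.69 ± 0.33, adjusted p = 0.004). TOP2A, at 123 and 156 CPM against 224 and 195 CPM, did not pass (adjusted p = 0.12). The histone HIST1H4C rose from 577 and 699 CPM to 1054 and 862 CPM (0.58 ± 0.14, adjusted p = 0.02).

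Among 14 immediate-early genes, FOS and AREG changed in opposite directions. FOS, a subunit of the AP-1 transcription factor, was at 21.9 and 38.8 CPM in mono-culture and at 95.1 and 105 CPM in co-culture (1.74 ± 0.31, adjusted p = 0.0015). AREG, a ligand of the epidermal growth factor receptor, fell from 296 and 337 CPM to 198 and 161 CPM (-0.82 ± 0.19, adjusted p = 0.021). The groups did not overlap for either gene.

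Ribosomal protein genes lay slightly lower than most genes in co-culture. Of the 80 tested, 3 fell and none rose, the median was -0.12, and 1 gene lay above the median of all genes. In 52 of the 80 the groups did not overlap in the lower direction, against 12.9% of all genes. After quantile normalization the list median was -0.04, against -0.01 for all genes. With median-ratio factors it was -0.28, against -0.00018 for all genes, and with TMM factors -0.27, against 0.01. Together they took 30.5% and 32.1% of all reads in mono-culture and 28.2% and 28.3% in co-culture. RPL13 fell from 5008 and 4634 CPM to 3015 and 3394 CPM (-0.59 ± 0.09, adjusted p = 0.00012) and RPS9 from 2600 and 2808 CPM to 1882 and 2168 CPM (-0.42 ± 0.10, adjusted p = 0.017). The pseudogene RPL13P12, a near copy of RPL13 that may share its reads, fell as well (-0.71, adjusted p = 0.0053). Without mono-culture replicate 2 or co-culture replicate 1, 1 of the 3 ribosomal protein genes passed. Of 38 translation factors, EIF1, which helps select the start codon, fell from 2479 and 2618 CPM to 1838 and 1939 CPM (-0.43, adjusted p = 0.032), a call lost whichever library was left out, and none rose. The list itself did not lie lower than 0, with a median of 0.02, 24 genes above 0, and 9 genes without overlap in each direction.

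Of 18 tested genes of the integrated stress response and amino acid synthesis, 2 fell and none rose (median -0.17). SLC3A2, the heavy chain of amino acid transporters, went from 408 and 392 CPM to 230 and 260 CPM (-0.71 ± 0.18, adjusted p = 0.029). CHAC1, which degrades glutathione, was at 54.7 and 27.0 CPM and at 13.9 and 5.65 CPM (-1.99 ± 0.55, adjusted p = 0.05, just under the threshold). The groups did not overlap for either gene, yet without mono-culture replicate 1, mono-culture replicate 2 or co-culture replicate 2 no gene of the list passed. Further falls were in TMSB10, a binder of actin monomers (3270 and 3618 CPM to 2627 and 2478 CPM, -0.43, adjusted p = 0.0081), S100P, a calcium-binding protein (438 and 573 CPM to 222 and 285 CPM, -0.99 ± 0.21, adjusted p = 0.0081), AP2S1, a subunit of the clathrin adaptor (-0.81, adjusted p = 0.037), and the long non-coding RNA MIR4435-2HG (-0.93, adjusted p = 0.028). COG3, a subunit of a Golgi tethering complex, had the largest fall, from 8 and 23 reads to 1 and 2 reads (-2.51 ± 0.61, adjusted p = 0.024). COG3 and CHAC1 averaged 3.82 and 9.76 CPM in co-culture and entered only through their mono-culture level.

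Several of the largest rises were in genes near the limit of detection. PDE6A, a phosphodiesterase of photoreceptors, had 0 and 1 reads in mono-culture and 6 and 13 reads in co-culture (3.90 ± 0.99, adjusted p = 0.032). FAM111A, a protease of the replication fork, was at 0 and 3.53 CPM and at 13.9 and 33.9 CPM (3.42, adjusted p = 0.024). RWDD2B was at 5.48 and 4.70 CPM and at 31.7 and 36.7 CPM (2.53 ± 0.54, adjusted p = 0.0081), with close replicates in each group. PDE6A, FAM111A and RWDD2B averaged 0.585, 1.765 and 5.09 CPM in mono-culture and entered only through their co-culture level. ING4, a reader of histone methylation, rose from 10.9 and 11.7 CPM to 39.6 and 50.9 CPM (1.90, adjusted p = 0.004), and the splicing factor SRSF5 from 164 and 140 CPM to 293 and 316 CPM (1.00 ± 0.21, adjusted p = 0.0065).

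No gene passed in the lists for the unfolded protein response (29 tested, median -0.21), proteasome subunits (31, 0.18), cell junctions (18, 0.31), glycolysis (15, -0.01), lysosome and autophagy (25, 0.09), interferon and NF-kB (15, -0.09), ribosome biogenesis (22, -0.07) or mucins and secretory cells (8, 0.39). Single calls came from IDI1 among 19 genes of cholesterol synthesis (0.66, adjusted p = 0.035) and HSPE1, the mitochondrial co-chaperonin, among 20 heat shock genes (0.48, adjusted p = 0.028). At this depth, an absence of calls in these lists does not show that levels were equal.

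**Figure D4:**
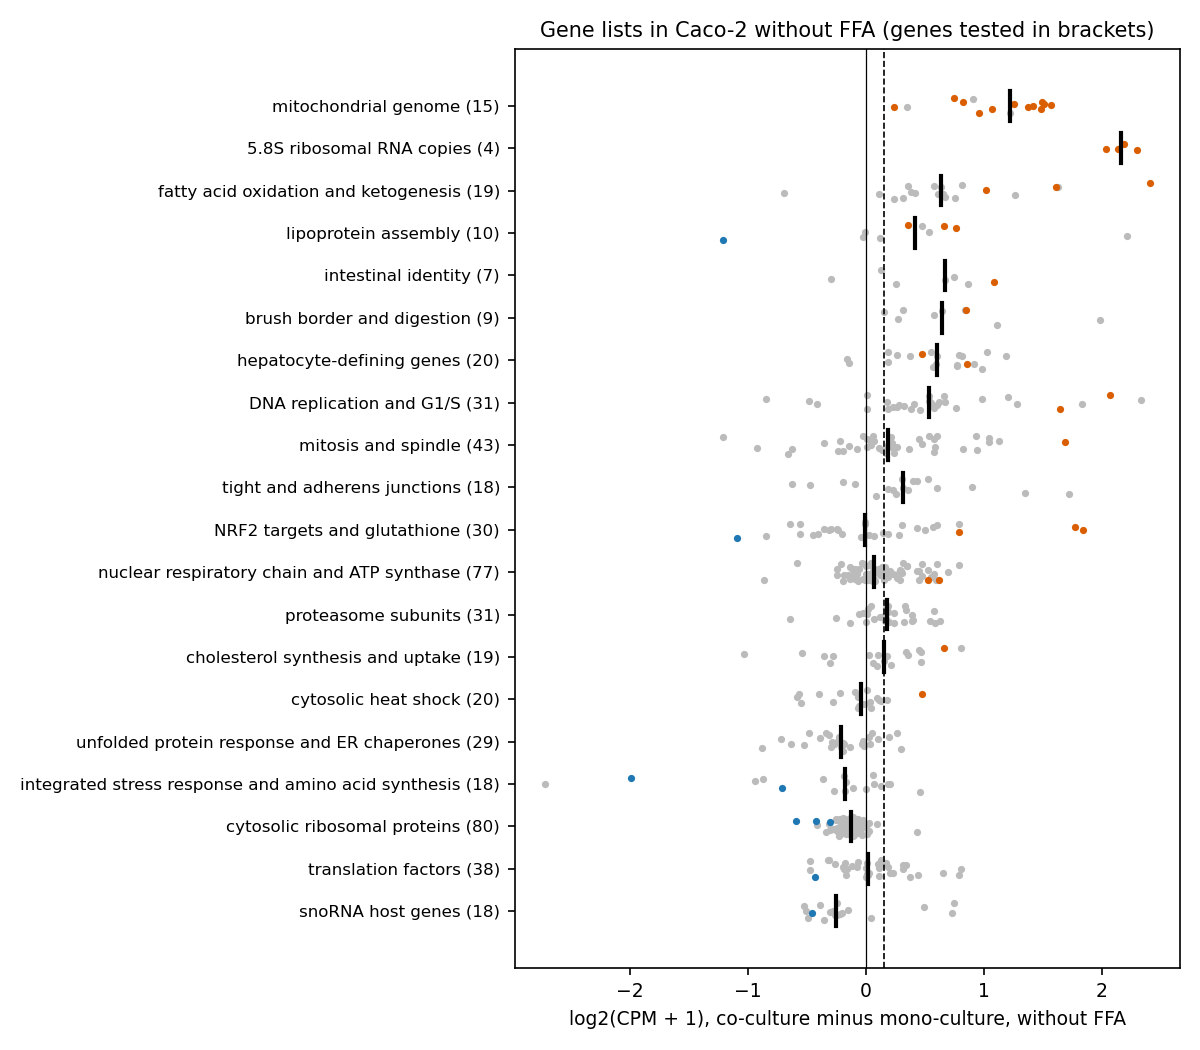
Gene lists in Caco-2 without FFA. Each row is a list with the number of genes tested in brackets, the horizontal axis is the log2 difference, co-culture minus mono-culture, and each point is a gene, with a short line at the list median. The 5.8S rRNA copies (median 2.16) and the mitochondrial genome (1.22) stand to the right of the dashed median of all genes (0.15), and the ribosomal proteins (-0.12) to its left.

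The 4 Caco-2 libraries with FFA did not enter the contrast that chose these genes, but they did enter the estimate of its spread. Of the 92 higher genes, 85 had a log2 difference above 0 there, where 53.4% of all genes did. In 64 the groups with FFA did not overlap in the higher direction, against 23.1% of all genes, and 18 passed in the same direction. With FFA, 2.05% of all genes passed, and 0.753% of all genes passed as higher. MT-RNR2 passed in the opposite direction. Of the 20 lower genes, 17 were below 0 with FFA, 13 did not overlap in the lower direction, against 21.8% of all genes, and 5 passed, against 1.3%. The median log2 difference was 0.58 for the higher genes with FFA and -0.32 for the lower genes. A fit of the 4 control libraries alone, whose spread owes nothing to the FFA libraries, called 80 genes, 74 of them among the 112. Of its 60 higher genes, 55 were above 0 with FFA and 42 did not overlap in that direction, and of its 20 lower genes, 19 were below 0 and 15 did not overlap.

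FABP1 (1.34, adjusted p = 9.2e-08), GSTA1 (1.51, adjusted p = 0.00027), FOS (1.29, adjusted p = 0.023), AFP (1.07, adjusted p = 0.00066), RNA5-8SN1 (1.87, adjusted p = 2.2e-07) and SRSF5 (1.01, adjusted p = 0.0071) rose with FFA as well, and SLC3A2 (-0.97, adjusted p = 0.0013) and AREG (-0.89, adjusted p = 0.012) fell. Of the mitochondrial genes, MT-CO2 (1.04, adjusted p = 0.0011), MT-ND1 (0.95, adjusted p = 0.002) and MT-CO3 (0.65, adjusted p = 0.012) passed with FFA, whereas MT-ND4 was at -0.13 (adjusted p = 0.73). The difference between the co-culture effects with and without FFA passed for 7 genes (0.132%), among them MT-ND4 and MT-RNR2. RPL13 was at -0.18 with FFA (adjusted p = 0.39), and PDE6A, the largest riser without FFA, at -0.32 (adjusted p = 0.94).

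**Figure D5:**
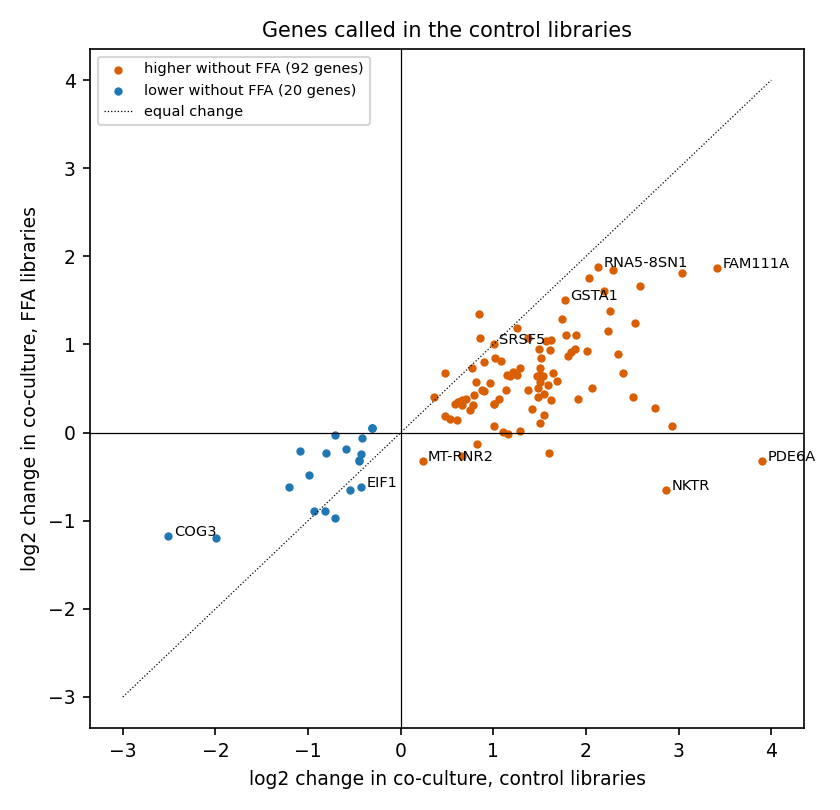
The 112 genes in libraries with and without FFA. Each point is a gene that passed without FFA, with its log2 difference in the control libraries (horizontal) and in the FFA libraries (vertical). Of the 92 higher genes 85 lie above zero with FFA, and of the 20 lower genes 17 lie below it, mostly at smaller sizes.

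In HepG2 cells without FFA, the same comparison of co-culture with mono-culture gave 59 of the 92 higher genes above 0, where 56.5% of all genes were, and 11 of the 20 lower genes below 0. In HepG2 itself 7 of the 5310 genes passed (0.132%). Among them the 4 copies of 5.8S rRNA (RNA5-8SN1 1.13, adjusted p = 0.0074) and APOA1 (0.59, adjusted p = 0.014) rose in HepG2 as well. So did GSTA1 (3.35, adjusted p = 0.0042), from 0 and 0.98 CPM to 16.9 and 10.6 CPM. The difference between the lines passed for 18 of the 5310 genes (0.339%). Of the genes described here, MT-CO2, MT-ND1, MT-CYB, MT-ND2, MT-ND5, MT-CO3, MT-ATP6, MT-ND4, MT-CO1, FABP1, ETFB and SNORD13 rose more in Caco-2 than in HepG2 by this test, and RPL13 and RPS9 were lower. The median of the 15 mitochondrial genes was -0.22 in HepG2.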

How the data were processed

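RNA of Caco-2 and HepG2 cells was sequenced by the authors with Oxford Nanopore PCR-cDNA barcoding. The submitters' processing notes name minimap2 2.22 and GRCh38. The study's methods describe TPM from RSEM after STAR mapping and removal of rRNA and mitochondrial reads. They do not say whether this covers the Nanopore reads, and these values hold such reads and no length term, so the counter is uncertain. The values the authors deposited are called TPM, but they are CPM: the authors scaled each library's reads to the same total, and the values are whole multiples of 1 step per library without a term for gene length. Reads were recovered by dividing by that step (99.5% to 99.9% of values whole within 0.05 in the 4 control libraries).

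log2(CPM + 1) values of the 8 Caco-2 libraries were fitted with group means in limma 3.58.1 (trended prior, R 4.3.3), which had been planned for TPM. The contrast was co-culture minus mono-culture without FFA, and Benjamini-Hochberg adjustment ran over 5310 genes with a threshold of 0.05. The HepG2 control libraries entered a second fit with the Caco-2 controls. The script was tested on simulated data. edgeR 4.0.16 and DESeq2 1.42.0 on recovered reads, other scalings, filters and pseudocounts, a replicate block and leaving out each control library were alternatives. Depths ran from 353871 to 974654 reads in Caco-2. Positions came from GENCODE 44, which held 99.5% of the identifiers.

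The gene lists (40, with 1190 genes) and the members were chosen with earlier results of these data known. Genes were named as the 14 largest changes in each direction, up to 4 per list by p-value, the 3 strongest interactions and line differences and the 5 most abundant, of which those with a bearing on the lists are given. The remaining mitochondrial genes and ALB, APOB, DEFB1, FXYD3, DECR1, PHYH, BDH2, SUCLG1, HIST1H4C, ING4 and SRSF5 were named after their values were seen. A few genes are counted in the totals but not reported here by name.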

Additional observations from a re-analysis of the deposited data

Results flagged for a closer look

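The effect of co-culture differed between media for 7 genes at an adjusted p under 0.05, by the interaction of co-culture and FFA in limma. In each of them the co-culture effect was lower with FFA. Among them, the differences of the log2 effects (with FFA minus without) were -1.85 for DKK1, an inhibitor of Wnt signalling, -2.49 for the heat shock co-chaperone DNAJB1, -1.79 for the heat shock protein HSPA1A, -1.26 for MSMO1, an enzyme of cholesterol synthesis, -0.95 for MT-ND4 and -0.55 for MT-RNR2. DKK1 was at 482 and 317 CPM in mono-culture and 466 and 398 CPM in co-culture without FFA, where the groups overlap, and at 883 and 697 CPM against 247 and 230 CPM with FFA. DNAJB1 was at 550 and 416 CPM against 311 and 427 CPM without FFA and at 556 and 574 CPM against 42.1 and 137 CPM with FFA. MT-ND4 was at 635 and 608 CPM against 1141 and 1065 CPM without FFA. With FFA it was at 1274 and 1114 CPM in mono-culture and 1075 and 1106 CPM in co-culture, so that 3 of these groups lay close together and the mono-culture control group alone was lower.

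The effect of co-culture without FFA differed between the lines for 18 genes at an adjusted p under 0.05, by the interaction of co-culture and line. Among the mitochondrial genes the differences (Caco-2 minus HepG2, log2) were 1.78 for MT-ND1, 1.70 for MT-CYB, 1.65 for MT-CO2, 1.51 for MT-CO3, 1.31 for MT-ND2, 1.30 for MT-ND5, 1.30 for MT-ATP6, 1.21 for MT-CO1 and 1.13 for MT-ND4. MT-CO2 stood at 7028 and 8258 CPM in HepG2 mono-culture and at 7515 and 6949 CPM in HepG2 co-culture, well above its level in any Caco-2 control library. The effect was also higher in Caco-2 for SNORD13 (1.72), the trypsin inhibitor SPINK1 (1.33), ETFB (0.97) and FABP1 (0.90). It was lower in Caco-2 for C4orf48 (-3.88), the actin-severing protein CFL1 (-1.18), RPL13 (-0.89), RPS9 (-0.64) and the ferritin light chain FTL (-0.53). SPINK1 was at 1453 and 1686 CPM against 1731 and 1975 CPM in Caco-2, which did not pass there, and at 248 and 276 CPM against 118 and 127 CPM in HepG2. C4orf48 rested on 2.32 and 2.94 CPM in HepG2 mono-culture. No cause of these differences was tested.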

How the results depend on the processing

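The 112 calls became 42 of 18308 genes without a filter on low values, 15 when 1 CPM in any group was enough, 50 after quantile normalization, 62 with median-ratio and 62 with TMM factors, 19 after thinning to the shallowest library, 63 with edgeR and 58 with DESeq2 (26 without its independent filter, added after the data were seen). With a constant prior variance limma called 0 genes (713 at an unadjusted p under 0.05). At an adjusted p under 0.1 there were 200 calls, and 340 genes changed by at least 1.2-fold with unadjusted p under 0.01. With 1 library left out there were 42 to 69. The 7 calls for the difference between media became 4 without a filter, 0 at a mean of 1 CPM (776 at an unadjusted p under 0.05), 3, 2 and 2 after quantile, median-ratio and TMM scaling, and 0 with a constant prior variance. The 18 for the difference between lines became 11, 5 and 0 without a filter, at 1 CPM and with a constant prior variance. Of the 112 genes, 102 kept their sign with FFA, and 100 to 102 in the alternatives. TPT1 ran from -0.15 to 0.0143 with 1 library left out. The log2 differences between replicates 1 and 2 correlated from group to group by 0.0039 to 0.0807 over 5310 genes. Over the 1141 genes at 100 CPM or more these differences correlated by -0.01 to 0.27. Not every pair of groups was above 0.1, and the numbers were not taken to pair the libraries. With the replicate as a block there were 201, 22 and 35 calls for the co-culture effect, the difference between media and that between lines. For the low genes, counts of a few reads limit every call.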
